A study of Mus musculus with 4 samples.

Results

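The genes described here encode 7 Toll-like receptors (Tlr1, Tlr2, Tlr3, Tlr4, Tlr6, Tlr7 and Tlr13), the co-receptors Cd14 and Ly96, and the adaptor Myd88. These 10 genes, of 18193 with a single-gene probe set, were matched by gene symbol in the platform table. For a gene with several probe sets, the brightest on average was read and the others are given beside it. All 10 had a signal above background on all 4 arrays, and all 10 passed the filter on low values. The samples are labelled as bone marrow-derived cells from the fibrotic liver of C57BL/6 mice. The labels also name liver tissue, and which RNA was hybridised is not clear from them. The question was which transcripts differ with G-CSF (granulocyte colony-stimulating factor), the cytokine under which the marrow makes and releases neutrophils. All mice received 30 injections of carbon tetrachloride, a liver toxin, at 1 ml/kg. Over 7 days before the last injection, the G-CSF group (2 arrays) was given the recombinant human protein at 100 µg/kg. The PBS group (2 arrays) received mouse serum albumin at 0.1% in phosphate-buffered saline. No untreated liver, sort or gate is described in the labels, nor whether animals were pooled or separate. The p-values therefore measure only the spread between these arrays, which may be technical.

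Toll-like receptors are membrane sensors of microbial products and of material from damaged cells. Those on the cell surface bind lipoproteins and lipopolysaccharide, and those in endosomes bind nucleic acids. Most signal through the adaptor MyD88 to the kinases of the IRAK family and on to NF-κB, and some signal through TRIF to interferon regulatory factors. In liver they are known from Kupffer cells, recruited monocytes and neutrophils, and at lower levels from endothelial, stellate and parenchymal cells.

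Signals are MAS5 values on a linear scale. Differences are G-CSF minus PBS in log2(signal + 23), with the standard error (SE) of the limma fit over 2 arrays a group (n = 2). On this scale, changes of genes with low signals come out smaller than they are. In RNA from a mixture of cells, fewer cells of a type and less RNA per cell cannot be told apart. PBS replicate 1 stood apart: its Pearson correlation with the other arrays over 12187 genes was 0.813 to 0.844, against 0.939 to 0.974 among the others. Differences are therefore also given against either PBS array on its own. The 3' to 5' ratio of the Gapdh control probe sets, a measure of RNA integrity and labelling, was 15.7 and 14.8 on the PBS arrays and 20.2 and 19.1 on the G-CSF arrays. The ratio of the Actb control probe sets was 11.2 and 9.88 on the PBS arrays and 12.6 and 13.7 on the G-CSF arrays. Both ratios thus moved with the groups, and their part in the results below was not tested.

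None of the 10 genes passed the limma test after Benjamini-Hochberg adjustment over all 12187 genes tested, with adjusted p from 0.988 to 0.997. Over all genes 0.0% were called higher and 0.0% lower by the same rule. At an unadjusted limma p below 0.05 there were 382 genes higher (3.13%) and 47 lower (0.386%), and 1 of the 10, Tlr6, was among the former. For 5 of the 10 genes (Tlr2, Tlr4, Tlr6, Tlr13 and Myd88) both G-CSF arrays lay above both PBS arrays, an order seen in 18.6% of all genes tested. For 0 of the 10 both G-CSF arrays lay below both PBS arrays, against 12.1% of all genes. The mean difference was above 0 for 9 of the 10, as for 55.9% of all genes, and their median was 0.81, against 0.07 for all genes. For any one gene, the smallest two-sided p that exact permutation of these arrays allows is 0.333.

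For 8 of the 10 genes, all but Tlr6 and Tlr13, the gap between the PBS arrays was larger than the difference between the group means. The share of all genes with such a gap was not counted, so it cannot be read as particular to the 10. All 10 genes had their lowest signal on PBS replicate 1, as had 47.0% of all genes tested. PBS replicate 2 was at least 2-fold above PBS replicate 1 for 7 of the 10, and for 20.0% of all genes. Against PBS replicate 1 alone the G-CSF mean was at least 2-fold higher for 7 of the 10 genes, against 16.5% of all genes, and the median difference was 1.23, against 0.19 for all genes. Against PBS replicate 2 alone it was 0.17, against 0.00066 for all genes, and 6 of the 10 lay above PBS replicate 2 (50.1% of all genes). Without PBS replicate 2, 8 of the 10 genes passed the adjusted limma threshold, all higher, in a fit that called 22.6% of all genes higher and 15.9% lower. Without PBS replicate 1, 0 of the 10 passed, in a fit that called 2.78% of all genes higher and 1.45% lower. In these fits the lone PBS array is assumed to vary like the G-CSF arrays.

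**Figure D1:**
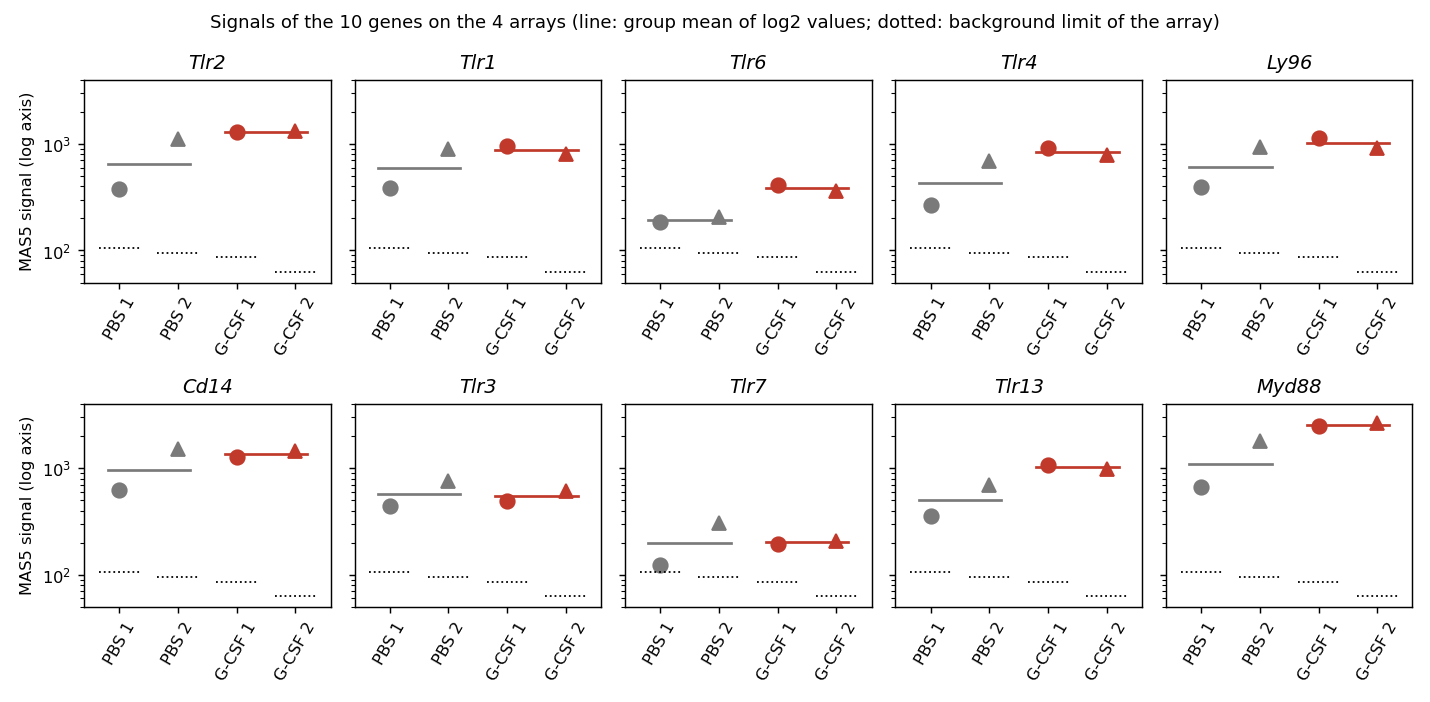
MAS5 signal (log axis) of the 10 genes on each array, with PBS in grey and G-CSF in red, circles for replicate 1 and triangles for replicate 2. Solid lines are group means of the log2 values and dotted lines the background limit of each array. The lowest of the 4 points in every panel is PBS replicate 1.

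Cd14 and the lipopolysaccharide receptor were measured first. CD14 is a surface and soluble protein of monocytes and macrophages that hands lipopolysaccharide to the receptor complex. Cd14 had signals of 624 and 1509.7 in PBS replicates 1 and 2 and of 1269 and 1445 in G-CSF replicates 1 and 2. The G-CSF arrays lay between the PBS arrays. The difference was 0.47 ± 0.50, with 1.09 against PBS replicate 1 and −0.15 against PBS replicate 2, so the direction depended on the PBS array.

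TLR4 is the receptor that, with MD-2, recognizes lipopolysaccharide. Tlr4 had signals of 267 and 687 with PBS and of 914 and 782 with G-CSF. Both G-CSF arrays lay above both PBS arrays, by a smaller step from PBS replicate 2 than the step between the PBS arrays. The difference was 0.94 ± 0.51, a fold of 1.91, with 1.58 against PBS replicate 1 and 0.29 against PBS replicate 2. A second Tlr4 probe set had signals of 183 and 413 with PBS and of 456 and 349 with G-CSF. On it the groups overlapped, and the difference was 0.50 ± 0.49. Another Tlr4 probe set was above background on PBS replicate 2 and both G-CSF arrays, with signals of 127, 99.0 and 76.5, and at 20.0 on PBS replicate 1. The last Tlr4 probe set was at most 14.4 on every array, below background.

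Ly96 encodes MD-2, the subunit of the complex that holds the lipid. Ly96 had signals of 396 and 928 with PBS and of 1130.0 and 907 with G-CSF. The groups overlapped, because G-CSF replicate 2 lay just under PBS replicate 2. The difference was 0.71 ± 0.49, a fold of 1.64, with 1.30 against PBS replicate 1 and 0.12 against PBS replicate 2. Tlr4, Ly96 and Cd14, the genes of the complex, thus shared a low PBS replicate 1 and did not share the order of the other arrays.

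TLR2 recognizes bacterial lipoproteins and works as a pair with TLR1 or with TLR6. Tlr2 had signals of 379.7 and 1118 with PBS and of 1295 and 1312 with G-CSF. The G-CSF arrays were nearly equal and lay above both PBS arrays. The difference was 0.97 ± 0.56, a fold of 1.96, with 1.72 against PBS replicate 1 and 0.22 against PBS replicate 2.

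TLR1, the partner of TLR2 for triacylated lipoproteins, is encoded next to TLR6: Tlr1 and Tlr6 are adjacent among the coding genes of the RefSeq annotation of GRCm38.p6. Tlr1 had signals of 385 and 895 with PBS and of 959 and 812 with G-CSF. The groups overlapped, since PBS replicate 2 lay between the G-CSF arrays. The difference was 0.56 ± 0.48, with 1.15 against PBS replicate 1 and −0.02 against PBS replicate 2.

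Tlr6 encodes the partner of TLR2 for diacylated lipoproteins, and its PBS arrays lay closest together among the 10 genes. Tlr6 had signals of 185 and 205 with PBS and of 413 and 361 with G-CSF. Both G-CSF arrays lay well above both PBS arrays. The difference was 0.91 ± 0.33, a fold of 1.88 (limma, adjusted p = 0.988). Taken against each PBS array in turn it was 0.98 and 0.85. The SD between PBS replicates was 0.091 for Tlr6 and the median over the 10 genes was 0.83, while all genes tested had a median of 0.49. Between G-CSF replicates the SD was 0.13 for Tlr6, and the medians were 0.13 for the 10 genes and 0.15 for all genes. Tlr6 was thus the member whose difference depended least on which PBS array was used, over a range of 0.74 to 1.00 across the alternative settings in which it was tested.

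**Figure D2:**
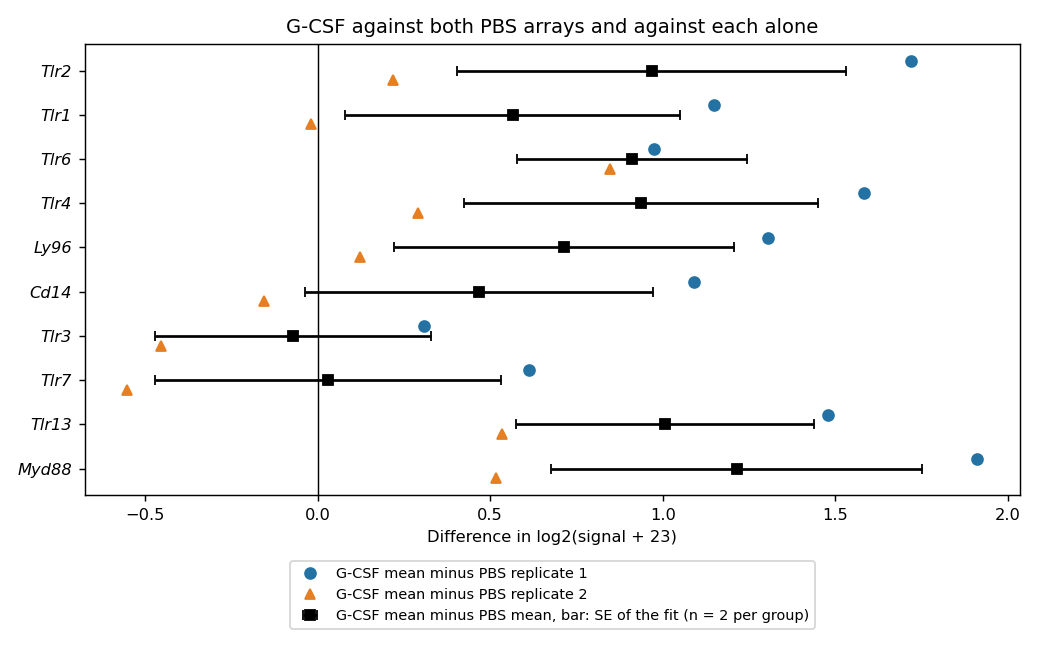
Difference in log2(signal + 23) for each gene: G-CSF mean minus PBS mean (black squares, bars are the SE of the fit), minus PBS replicate 1 alone (blue circles) and minus PBS replicate 2 alone (orange triangles). Tlr6 has the narrowest gap between the circle and the triangle, and Cd14, Tlr1, Tlr3 and Tlr7 have triangles below 0.

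Of the receptors that act in endosomes, one was higher on both G-CSF arrays and the other two were not. TLR13 is a rodent receptor for bacterial ribosomal RNA. Tlr13 had signals of 353 and 701 with PBS and of 1077 and 976 with G-CSF, so both G-CSF arrays lay above both PBS arrays. The difference was 1.01 ± 0.43, a fold of 2.01, with 1.48 against PBS replicate 1 and 0.53 against PBS replicate 2.

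TLR3 recognizes double-stranded RNA and signals through TRIF in place of MyD88. Tlr3 had signals of 439.8 and 761 with PBS and of 496 and 609 with G-CSF, and the G-CSF arrays lay between the PBS arrays. The difference was −0.07 ± 0.40, with 0.31 against PBS replicate 1 and −0.45 against PBS replicate 2. A second, more specific Tlr3 probe set was weak, with signals of 75.3 and 118 with PBS and of 73.0 and 72.4 with G-CSF. It was above background on PBS replicate 2 and G-CSF replicate 2, and it did not reach the filter.

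TLR7 recognizes single-stranded RNA. Tlr7 had signals of 124 and 306 with PBS and of 194 and 209 with G-CSF, and the G-CSF arrays again lay between the PBS arrays. The difference was 0.03 ± 0.50, with 0.61 against PBS replicate 1 and −0.55 against PBS replicate 2, and it was below 0 with quantile normalization (−0.017) and with median centring (−0.024). The other 2 Tlr7 probe sets lay at background on both PBS arrays and did not reach the filter. The first of them, a set named by Affymetrix as possibly cross-hybridizing, had 18.7 and 10.03 with PBS against 96.0 and 61.3 with G-CSF. The other had 7.36 and 88.5 with PBS against 126 and 76.3 with G-CSF. No fold is given for either, since on both sets G-CSF replicate 2 lay below the background limits of the PBS arrays. Tlr8, the neighbour of Tlr7 on the X chromosome, was at background on all 4 arrays.

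MyD88 is the adaptor that most of these receptors share. Myd88 had signals of 666 and 1790.1 with PBS and of 2503 and 2639.7 with G-CSF. Both G-CSF arrays lay above both PBS arrays, and the G-CSF arrays differed little from each other. The difference was 1.21 ± 0.54, a fold of 2.32, with 1.91 against PBS replicate 1 and 0.52 against PBS replicate 2. Myd88 and Tlr13 were the 2 members whose groups did not overlap and whose G-CSF mean was at least 2-fold higher. The same held for 4.04% of all genes tested. Tlr13 met the 2-fold limit narrowly and fell short of it with quantile normalization (0.97), median centring (0.95) and 4 times the pseudocount (0.91). It also fell short without PBS replicate 1 (0.53) or G-CSF replicate 1 (0.94). Without PBS replicate 1, Myd88 fell short of the limit as well (0.52).

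The promoters of Myd88 and Tlr13 are shown because these genes had the highest mean differences of the 10. Each window holds the 250 bases before the annotated start (RefSeq, GRCm38.p6), 5′ to 3′ on the strand of the gene. Windows were given for 6 of the 10 genes. The Myd88 window is chr9:119340019-119340268 on the minus strand and the Tlr13 window is chrX:106143025-106143274 on the plus strand. Capitals mark matches, on either strand, to the core of the myeloid factor PU.1 (GAGGAA), to an NF-κB pattern (GGGA, 4 bases of any kind, CC) or to the interferon response element (GAAA, 2 bases of any kind, GAAA).
Myd88: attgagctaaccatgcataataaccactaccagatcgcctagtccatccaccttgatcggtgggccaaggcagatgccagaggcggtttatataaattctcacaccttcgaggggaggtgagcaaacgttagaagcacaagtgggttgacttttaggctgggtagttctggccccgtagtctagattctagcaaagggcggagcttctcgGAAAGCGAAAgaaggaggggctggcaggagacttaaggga
Tlr13: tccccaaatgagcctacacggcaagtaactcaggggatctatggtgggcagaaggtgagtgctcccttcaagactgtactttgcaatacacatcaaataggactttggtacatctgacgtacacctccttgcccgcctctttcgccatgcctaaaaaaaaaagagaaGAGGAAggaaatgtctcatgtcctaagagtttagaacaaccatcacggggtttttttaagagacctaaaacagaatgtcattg
In Myd88 the interferon response element lies 40 to 31 bases before the start, and 2.98% of all 32851 windows hold that pattern. Among the other members it was found for Tlr6. In Tlr13 the PU.1 core lies 83 to 78 bases before the start, and 23.3% of all windows hold it, one of Tlr1 among them. Neither match overlaps another of the 3 motifs. The NF-κB pattern, in 17.6% of all windows, was found in those of Tlr2 and Tlr3 and in neither sequence shown. A match is a description of the letters, and binding was not measured.

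Likeness between genes was the root mean square (RMS) difference of the 4 log2 values after centring each gene on its mean, a description over 4 arrays. Among the members, Tlr1 and Ly96 were closest (RMS 0.079), followed by Tlr2 and Tlr4 (0.11). Tlr3 and Tlr7 were each other's closest member (0.17), both with PBS replicate 2 highest. Tlr6 was farthest from the rest, at 0.29 from its closest member, Tlr13.

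Among all genes tested, the closest to Tlr2 were Tgfa (0.0066) and Mid1ip1 (0.047), and the closest to Tlr4 were Svip (0.038) and Man1c1 (0.042). Those closest to Tlr1 were Rgs1 (0.016) and Gprc5a (0.017), and those closest to Ly96 were Gas2l1 (0.024) and Rcor3 (0.024). Tlr6 was closest to Wnt10a (0.030) and Hk2 (0.033). Cd14 was closest to Aqp5 (0.0098) and Inf2 (0.022), Tlr13 to Gm19696 (0.018) and Armcx3 (0.038), and Myd88 to Slc16a3 (0.037) and Abcd2 (0.046). Tlr3 was closest to Dhx32 (0.025) and Slc30a10 (0.029), and Tlr7 to Hacl1 (0.024) and H6pd (0.031). Aqp5, Gm19696, Slc16a3 and Slc30a10 were at background on PBS replicate 1 and Wnt10a on both PBS arrays, so their values there are only bounds and their RMS and rank are uncertain. With 4 arrays, close profiles are easily found among 12187 genes.

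Of 73 other genes of the pathway, 67 had a single-gene probe set and 57 passed the filter. None was called by limma (adjusted p from 0.837 to 0.998), and 3 had an unadjusted limma p below 0.05. All 3 were target genes and higher, beside 3.13% of all genes higher and 0.386% lower. In 13 of the 57 (22.8%) both G-CSF arrays lay above both PBS arrays, and in 7 (12.3%) below them, against 18.6% and 12.1% of all genes. The median difference was 0.19, and 35 of the 57 (61.4%) had their lowest signal on PBS replicate 1, against 47.0% of all genes. The list medians given below depended on the PBS array. Against PBS replicate 1 alone they were 0.47 for other receptors, 0.74 for other adaptors, co-receptors and chaperones, −0.31 for kinases and ubiquitin ligases, 0.26 for transcription factors, 0.37 for brakes and 0.86 for target genes. Against PBS replicate 2 alone they were −0.12, 0.23, 0.0074, −0.11, −0.06 and −0.11 in the same order.

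Among other receptors, the groups overlapped for all 3 tested (Tlr5, Tlr9 and Cd180). Of all genes, 18.6% were higher without overlap and 12.1% lower. The list median of 0.37 turned to −0.045 with no filter on low values. It fell to 0.046 without G-CSF replicate 1 and 0.19 without G-CSF replicate 2. Among other adaptors, co-receptors and chaperones, 3 of 9 were higher on both G-CSF arrays and 0 lower, beside the same shares. Their median was 0.35. Tirap, the bridge between TLR2 or TLR4 and MyD88, had signals of 326 and 953 with PBS and of 1386 and 1389 with G-CSF. Its difference was 1.27 ± 0.56, with 2.01 against PBS replicate 1 and 0.53 against PBS replicate 2, close to the values of Myd88, and its other probe set gave 0.98. Unc93b1, which carries the endosomal receptors from the endoplasmic reticulum, had signals of 452 and 1205 with PBS and of 1873 and 1559 with G-CSF. Its difference was 1.18 ± 0.54, with 1.87 and 0.50 against the PBS arrays in turn. Ticam1, which encodes the adaptor TRIF, had signals of 166 and 173 with PBS and of 235 and 218 with G-CSF, a difference of 0.38 ± 0.35, with 0.40 and 0.35 against the PBS arrays in turn.

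Kinases and ubiquitin ligases were the list with a median below 0. Of 12 tested, 2 were higher on both G-CSF arrays and 4 lower, against 18.6% and 12.1% of all genes. The median was −0.18, and 8 had their highest signal on PBS replicate 1 (33.7% of all genes). Irak2, a kinase downstream of MyD88, differed by 0.74 ± 0.45, with 1.25 and 0.24 against PBS replicates 1 and 2. Tab3, which activates the kinase TAK1, had signals of 1718 and 552 with PBS and of 519 and 518 with G-CSF. Its difference was −0.89 ± 0.59, with −1.68 against PBS replicate 1 and −0.09 against PBS replicate 2. Tab1, another partner of TAK1, differed by −0.55 ± 0.41, with −0.95 and −0.15 against the PBS arrays in turn.

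Of 9 transcription factors, 2 were higher on both G-CSF arrays and 2 lower (18.6% and 12.1% of all genes), with a median of 0.21. Irf7, the interferon regulatory factor of TLR7 signalling, had signals of 868 and 2105 with PBS and of 657 and 838 with G-CSF. Its difference was −0.85 ± 0.51, and it was farther below PBS replicate 2 (−1.48) than below PBS replicate 1 (−0.22). Irf8, a factor of the monocyte lineage, differed by 0.59 ± 0.40, with 0.99 and 0.19 against the PBS arrays in turn, and its other probe set had overlapping groups. Fos differed by 0.21 ± 0.33, with 0.17 and 0.26.

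Of 10 brakes on the pathway, 2 were higher on both G-CSF arrays and 1 lower (18.6% and 12.1% of all genes). Their median was 0.15. Irak3, which encodes the inhibitory IRAK-M of monocytes and macrophages, had signals of 151 and 343 with PBS and of 497 and 349 with G-CSF. Its difference was 0.80 ± 0.49, with 1.34 and 0.27 against PBS replicates 1 and 2. Nfkbia, the inhibitor of NF-κB, differed by 0.36 ± 0.27, with 0.56 and 0.16 against the PBS arrays in turn. On another of its probe sets the groups overlapped (difference 0.42), and its remaining sets were higher on both G-CSF arrays. Tnfaip3, the deubiquitinase A20, differed by −0.16 ± 0.32, with −0.20 and −0.13.

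Of 14 target genes, 4 were higher on both G-CSF arrays and 0 lower (18.6% and 12.1% of all genes), with a median of 0.31. Saa3, an acute-phase protein of macrophages, had signals of 229 and 1838 with PBS and of 7462 and 7197 with G-CSF. Its difference was 3.43 ± 0.95 (limma, adjusted p = 0.983), with 4.87 against PBS replicate 1 and 1.98 against PBS replicate 2. Lcn2, a siderophore-binding protein that is also on the neutrophil list, differed by 2.59 ± 0.65 (limma, adjusted p = 0.837), with 3.51 and 1.67. Il1b, the cytokine interleukin-1β, had signals of 269 and 469 with PBS and of 858 and 941 with G-CSF, a difference of 1.28 ± 0.39 (limma, adjusted p = 0.988), with 1.66 and 0.91. The targets Il6, Il10, Il12b, Ifnb1, Ptgs2 and Nos2 were at background on all 4 arrays.

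**Figure D3:**
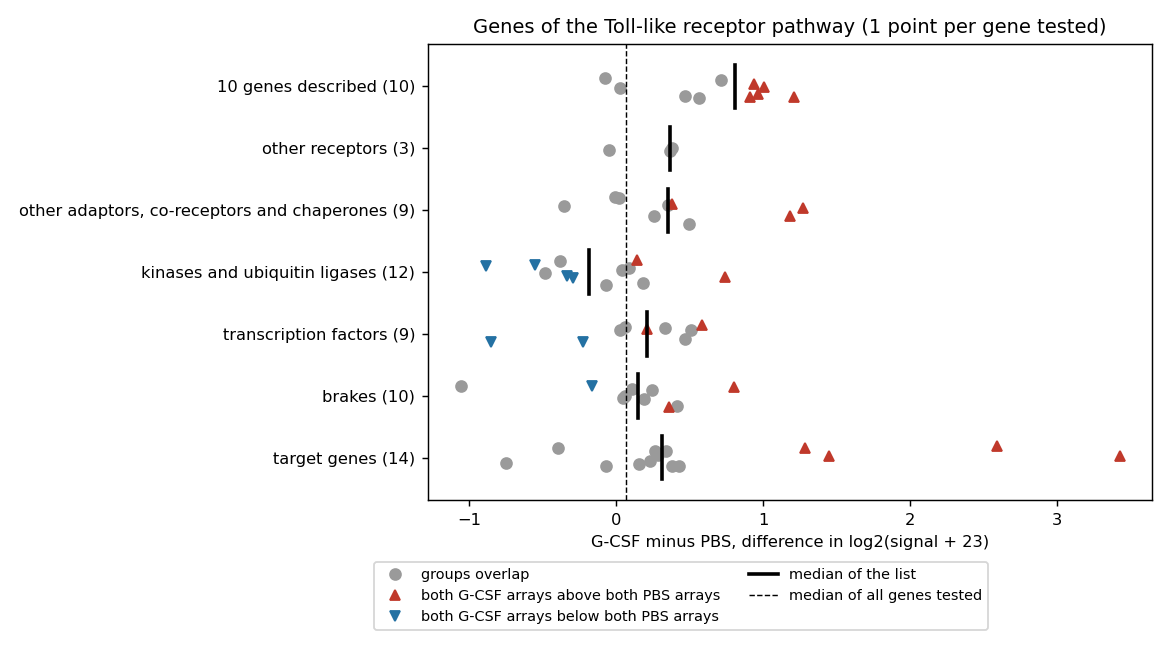
G-CSF minus PBS difference in log2(signal + 23), 1 point per gene tested, for the 10 genes described and 6 lists of other pathway genes, with the number tested in brackets. Red triangles are genes with both G-CSF arrays above both PBS arrays, blue triangles the opposite and grey circles overlap; black bars are list medians (0.81 for the 10 genes, −0.18 for kinases and ubiquitin ligases) and the dashed line is the median of all genes (0.07).

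Markers of the cells that carry these receptors also differed between the arrays. Of the 14 neutrophil markers tested, 14 were higher on both G-CSF arrays (18.6% of all genes), with a summed signal of 29052 and 17965 with PBS and of 304241 and 262292 with G-CSF. The median difference of that list was 4.27 against PBS replicate 1 and 4.90 against PBS replicate 2. Ctsg (84.9 and 17.9 with PBS) and Cxcr2 (37.4 and 23.5) were at background on both PBS arrays. They reached the filter on low values only through the G-CSF arrays, so the count of 14 is in part set by that filter. Their differences are lower bounds. Of 6 monocyte markers tested, 3 (Ccr2, F13a1 and Vcan) were higher on both G-CSF arrays, beside the same 18.6%. The groups overlapped for Fn1, Cx3cr1 and Csf1r. Their list summed to 22320.2 and 50513 with PBS and to 43345 and 46796 with G-CSF, and its median difference was 1.60 against PBS replicate 1 and 0.52 against PBS replicate 2. Of 8 macrophage markers tested, 1 was higher on both G-CSF arrays, a share below the 18.6% of all genes, and 7 had their lowest signal on PBS replicate 1 (47.0% of all genes). The macrophage list summed to 16727 and 39491 with PBS and to 30618 and 29834.5 with G-CSF, with median differences of 0.83 and −0.46 against the PBS arrays in turn.

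Of 6 Kupffer cell markers tested, 0 had groups that did not overlap, beside 18.6% of all genes higher and 12.1% lower. All 6 were lowest on PBS replicate 1, beside 47.0% of all genes. That list summed to 22027 and 55083 with PBS and to 39497 and 34644 with G-CSF, with median differences of 0.78 and −0.66. The Kupffer markers Timd4 and Marco were at background on all 4 arrays. T cell markers ran against the 10 genes: 9 of the 10 tested were highest on PBS replicate 1 (33.7% of all genes), and the list summed to 22908.5 there, against 2355 in PBS replicate 2 and 3609 and 1941 with G-CSF. Of the hepatocyte markers, 7 of 7 were lowest on PBS replicate 1 (47.0% of all genes). They summed to 140673 and 227962 with PBS and to 211268 and 201494 with G-CSF. Hepatocyte RNA was thus abundant on all arrays, where the labels name both bone marrow-derived cells and liver tissue. The part of these markers in the values of the 10 genes was not tested.

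**Figure D4:**
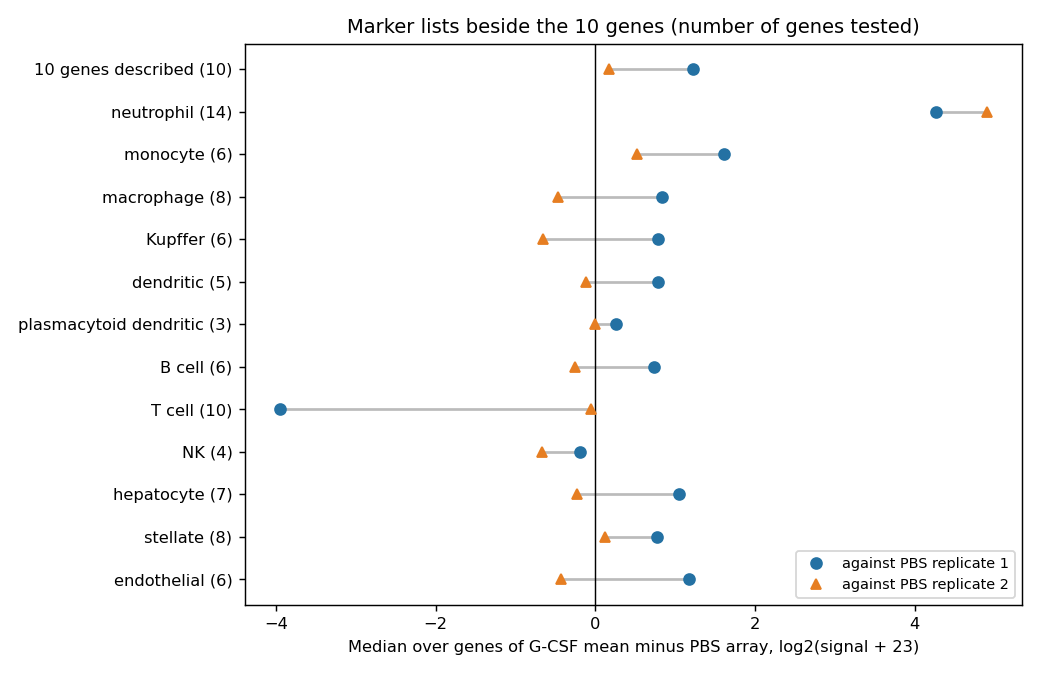
Median over genes of the G-CSF mean minus PBS replicate 1 (blue circles) and minus PBS replicate 2 (orange triangles), in log2(signal + 23), for the 10 genes described and 12 marker lists, with the number of genes tested in brackets. The 10 genes lie at 1.23 and 0.17, the neutrophil list at 4.27 and 4.90, and the T cell list at −3.94 and −0.06.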

How the data were processed

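Total RNA (40 ng per sample) was labelled with the 3' IVT Express kit, per the labels' protocols, and measured on 4 Affymetrix arrays of 45101 probe sets. The authors deposited linear MAS5 intensity values per probe set, per the submitters' processing notes, with no version named there. Each array had a 2% trimmed mean of 500, and no further scaling was applied. Control probe sets (64) and probe sets with several genes (932) or none (9160) were left out, and the other 34945 name 1 gene; 34741 of them matched the RefSeq gene table by Entrez ID. Each gene was represented by its brightest probe set on average, and genes above the median mean signal of 95.0 were tested (12187). The pseudocount of 23 is the overall median signal (92.9) over 4, as a whole number. limma 3.58.1 in R 4.3.3 was run with a trend, two-sided, with Benjamini-Hochberg adjustment over all genes at 0.05 (2 residual degrees of freedom, prior 3.13). It was also run on simulated data in which the noise of a gene was alike on all arrays. That run cannot show how the fit behaves with an array that stands apart. The background limit of an array was the brightest of 27 control probe sets whose target was not added: 106, 94.6, 86.4 and 63.0 (the PBS arrays, then the G-CSF arrays, each in replicate order). Depth has no meaning for arrays; their number limits the precision.

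The 10 genes, the lists and the tests were chosen with earlier results of these data known. All 10 genes are named, then up to 3 genes per pathway list with no overlap of the groups and the smallest unadjusted p, then the 2 tested genes with the profile closest to each member. Genes on the lists without a single-gene probe set were not analysed here. Columns left without a sample numbered 0. Alternatives were other scalings (quantile, median centring), a pseudocount of 1 or 92, the filter dropped or set at the 75th percentile, the fit without trend or robust, genes read as the mean of their probe sets or from specific probe sets only, testing by probe set, a replicate block, and leaving out each array in turn. Figures were drawn with Python 3.11.15 and matplotlib 3.10.9.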

Additional observations from a re-analysis of the deposited data

How the results depend on the processing

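The limit of these data is 2 arrays per group, 1 of which (PBS replicate 1) stands apart. Over all genes, with 0 called in either direction, specific probe sets only gave 11 called higher, and the replicate number as a block gave 89 higher and 3 lower. The labels state no animal or batch shared by a replicate number. The replicate 1 minus 2 difference of the PBS arrays correlated with that of the G-CSF arrays at −0.038 over 12187 genes. With PBS replicate 1 apart, that value cannot show whether the numbers pair the samples. The block called 0 of the 10 genes. With each array left out in turn, the counts ran from 6 to 2753 higher and from 0 to 1936 lower. The number of the 10 genes with all remaining G-CSF arrays above all remaining PBS arrays ran from 5 to 10. The number below them ran from 0 to 3. The share of all genes in such an order was not counted in these settings. With 1 array in a group that order is more easily met, so these counts only describe the arrays. The median difference of the 10 genes ran from 0.17 to 1.23. Both ends of the last range come from leaving out a PBS array. Over the other settings that median was 0.69 to 0.91.

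Of 156 differences of single members under the alternatives, 140 kept their direction and their side of the threshold. The 8 that newly passed came without PBS replicate 2, and 8 changed direction. These were Tlr7 with quantile normalization (−0.017) and median centring (−0.024), and, with arrays left out, Tlr1 (−0.020 to 1.15), Cd14 (−0.15 to 1.09), Tlr3 (−0.45 to 0.31) and Tlr7 (−0.55 to 0.61). The cause was not tested. Tlr6 and Tlr7 have no value under the 75th percentile filter, Tlr3 none with specific probe sets only and Tlr7 none with the mean of all probe sets, since they fall below the filter there.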
